A study of Rattus norvegicus with 8 samples.

Results

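The genes described here encode the proteins of the cytosolic ribosome. They were taken from a table of read counts of newly made RNA in cultured rat neurons, as all rows whose symbol follows the pattern of the Rpl, Rps and Rplp genes, or is Rpsa, and whose count summed over the 8 libraries was at least 80. Of the 16871 genes in the table, 78 met this rule. They comprise 46 genes of the large subunit, the 3 acidic stalk genes Rplp0, Rplp1 and Rplp2 included, and 32 of the small subunit. The rule used the symbol and the total over all libraries and no difference between groups.

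The assay was BrU-seq: bromouridine (BrU), an analogue of an RNA building block, is given to live cultures, and RNA that has incorporated it is pulled down by antibody for sequencing. The cultures were primary neurons from newborn Sprague Dawley rat pups (P1-P2), with cortical and hippocampal tissue combined per the growth protocol although the source name gives only hippocampal neurons. All cultures received water (H, the vehicle) or 1 µM tetrodotoxin (T, TTX, a sodium channel blocker that stops neuronal firing) for 24 h starting on day 14 in culture, then a washout of 48 h, and on day 17 vehicle or TTX for 4 h, with 2 mM BrU in the last 30 min. The 4 groups, with 2 libraries each, are named by both treatments: HH (vehicle, then vehicle), HT (vehicle, then TTX), TH (TTX, then vehicle) and TT (TTX, then TTX). These are mixed cultures made from pups, and the labels do not say how many animals were pooled or whether replicates came from separate cultures. The p-values therefore reflect only how far these libraries lie from each other, and that spread could be technical.

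Totals lay between 3489176 and 4959887 counts per library, and 11372 genes passed the expression filter and were tested. HH replicate 1 stood apart from the others: a list of 16 rapidly induced activity genes, such as Fos, averaged 1.59 log2 units above its mean over the libraries there, 0.25 in HT replicate 1 and -0.06 or lower in the other 6. Neuronal and glial markers were both measured, with 11 of 12 excitatory neuron markers and 11 of 11 astrocyte markers tested, against 4 of 12 microglial and 2 of 8 fibroblast markers. The glutamate transporter gene Slc17a7 stood between 79.9 and 119 CPM (CPM are a gene's counts scaled to a normalized library total of 1e6) and the astrocyte filament gene Gfap between 337 and 546 CPM, so the labelled neurons were accompanied by glia. In bulk RNA of this kind, fewer cells of a type and less RNA per cell cannot be told apart.

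A ribosome has a large and a small subunit, each built of ribosomal RNA and of many proteins, most of them needed in equal numbers, and neurons make these proteins for cell growth and for local translation in dendrites and axons. The messenger RNAs of most ribosomal proteins begin with a run of pyrimidines (C or T in the DNA), the terminal oligopyrimidine motif, through which their translation is tied to growth signalling. Many ribosomal protein genes also carry small nucleolar RNAs (snoRNAs) in their introns, which guide the chemical modification of ribosomal RNA after they are cut out of the host transcript.

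The sequence at the start site was therefore examined first. RefSeq promoter windows (GRCr8) were matched for 63 of the 78 genes, and a run of at least 6 letters, each C or T on the gene's strand, was searched for over the 10 bases around the annotated start. Such a run was present in 43 of 63 ribosomal protein genes (68.3%), against 1447 of 8564 other tested genes (16.9%) and 5128 of 27457 promoters in the whole RefSeq table (18.7%). The shares were alike in both subunits, with 26 of 38 large subunit genes (68.4%) and 17 of 25 small subunit genes (68.0%). Genes with an annotated snoRNA inside had the run in 14 of 23 cases (60.9%) and those without in 29 of 40 (72.5%). The run did not have to begin at the start base, so it is not the motif itself. The start base was C in 33 of 63 ribosomal protein genes (52.4%), against 30.5% of other tested genes. The windows below are 30 bases long, with 15 bases before the start and 15 from it on. They show 6 genes with the run and 2 without it, from genes described further on and Rps23, whose run in the full window was the longest of those printed, at 21 letters. Capitals mark the C or T run that reaches into the 10 bases searched, as far as the window holds it. The start follows the first 15 bases, so in Rpl13a the run ends before it.
Rpl27a, chr1:172974558-172974587, plus strand: cgagacttggtgggCTCCTCCCTCTTTCTT
Rpl13a, chr1:104748899-104748928, minus strand: CCTCTTCCTTTCCTaggcggctgccgaaga
Rpl12, chr3:36661925-36661954, plus strand: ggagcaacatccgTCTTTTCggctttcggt
Rpl34, chr2:221962269-221962298, minus strand: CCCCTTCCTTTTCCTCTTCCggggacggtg
Rps23, chr2:23814502-23814531, plus strand: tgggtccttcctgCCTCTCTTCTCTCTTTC
Rplp0, chr12:46718376-46718405, minus strand: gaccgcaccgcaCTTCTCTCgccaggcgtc
Rpl3, chr7:113507976-113508005, minus strand: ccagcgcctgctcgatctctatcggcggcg
Rps6, chr5:106420526-106420555, minus strand: gacgcctcctaggcggtcggctgtgtcaag
In Rpl3 the longest run at the start was 5 letters and in Rps6 2 letters, below the minimum of 6, which says only that these letters are not at the annotated start of this build.

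All 78 ribosomal protein genes passed the expression filter. Together they took between 0.643% (TH replicate 2) and 0.832% (TH replicate 1) of the library total. The large subunit genes took 0.406% to 0.531% and the small subunit genes 0.237% to 0.304%. Summed over the libraries, counts ran from 356 for Rps27l and 367 for Rpl22l1, paralogs of Rps27 and Rpl22, to 18496 for Rpl3, a protein close to the peptidyl transferase centre. The 4 symbols that matched the pattern but fell below the minimum were Rpl39l with 8 counts, Rpl3l with 7, Rps4y2 with 1 and Rpl37a with 0. Rpl37a, a constitutive ribosomal protein gene, was listed at 0 in all 8 libraries, where a count of 0 allows up to 3 counts, or 0.605 to 0.860 CPM before normalization, for counting error only. Ribosomal protein genes have many processed pseudogenes, and reads shared with near-identical copies could have been assigned differently, so the levels between members are uncertain on that account.

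Members that carry a snoRNA had the higher levels. By RefSeq coordinates (GRCr8), 30 members, 20 of the large and 10 of the small subunit, hold 59 annotated snoRNAs inside their span, and 48 hold none. This split was drawn after the members' counts had been seen. Per kb of gene span, the median level was 37.6 CPM per kb (quartiles 26.1 and 75.6) with a snoRNA inside and 11.9 (quartiles 7.69 and 17.7) without. Of the 20 members with the highest level per kb, 18 hold a snoRNA, the other 2 being Rpl41 and Rplp1, and of the 20 with the lowest level per kb none does. The highest were Rps2 at 184 CPM per kb, Rps12 at 151 and Rpl13a at 150.3. Rps2 lines the messenger RNA entry of the small subunit and holds 1 snoRNA, and Rpl13a holds 4. The snoRNA-carrying members together held 72.7% of the members' counts, between 71.2% (TT replicate 1) and 75.7% (HH replicate 1) in single libraries. Whether reads of the snoRNAs themselves, of introns or of exons make up these counts was not tested, since the sources used here do not give the counting settings.

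**Figure D1:**
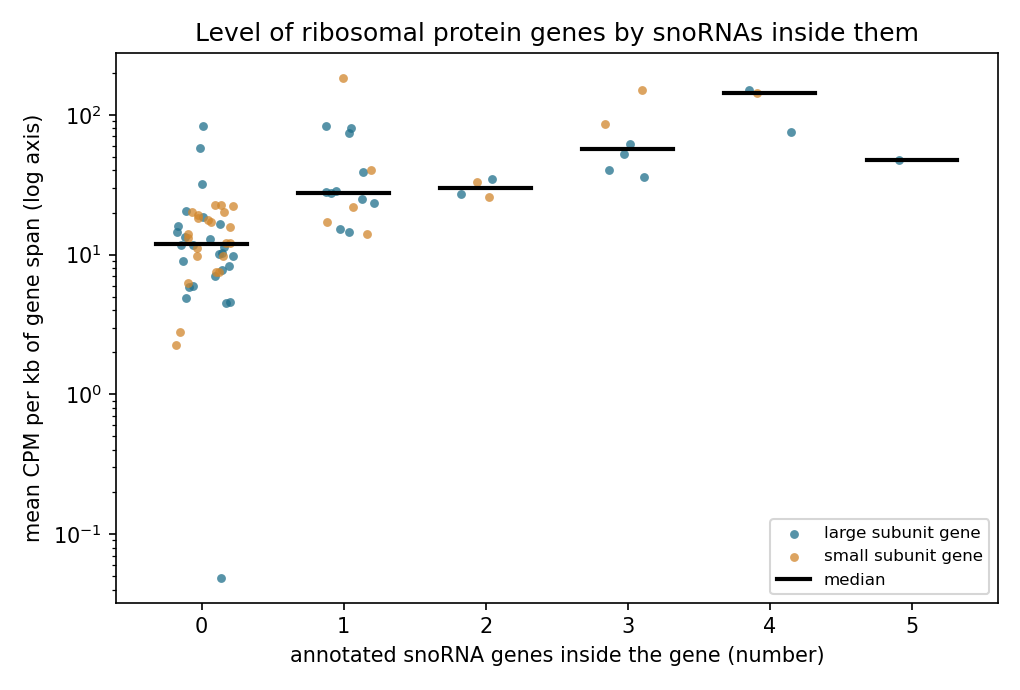
Mean level of each of the 78 ribosomal protein genes in CPM per kb of gene span (GRCr8; y axis, log scale) against the number of annotated snoRNAs inside the gene (x axis), with large subunit genes in blue, small subunit genes in orange and black lines at the medians. The median is 11.9 CPM per kb for the 48 genes with no snoRNA, 27.7 for 16 genes with 1 and 57.4 for 6 genes with 3. The single low point is Rpl29, whose span in this annotation is 893 kb.

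The level of the whole group differed more between replicates than between treatments. Each gene's log2 CPM was set against its own mean over the 8 libraries, and these differences were averaged over the 78 genes. The averages were 0.12 and 0.13 in HH, -0.12 and 0.09 in HT, 0.13 and -0.21 in TH, and -0.08 and -0.06 in TT (replicates 1 and 2). The HH libraries were both high and the TT libraries both somewhat low, while in HT and in TH one library was high and the other low, with a pooled SD within groups of 0.14. The gap of 0.34 between the TH replicates was larger than the gap between any group means. Of the 78 members, 20 lay below their own mean in HH replicate 1, against 52.2% of all genes tested, and 7 in HH replicate 2, against 49.7%. In HT replicate 1 69 did, against 49.9%, and in HT replicate 2 19, against 48.1%. In TH replicate 1 7 did, against 48.5%, and in TH replicate 2 76, against 50.2%. In TT 56 did in replicate 1, against 49.4%, and 52 in replicate 2, against 47.3%. The 2 libraries in which nearly all members were low, HT replicate 1 and TH replicate 2, thus belong to different groups. TH replicate 2 was the lowest library for 40 of the 78 members, against 10.7% of all genes tested, and the highest for none of them.

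Both subunits moved together across the libraries. The large subunit genes averaged 0.13, 0.15, -0.14, 0.10, 0.14, -0.20, -0.11 and -0.06 in HH, HT, TH and TT (replicates 1 and 2 in turn). The small subunit genes averaged 0.09, 0.11, -0.10, 0.09, 0.12, -0.22, -0.04 and -0.05. The signs were thus shared, with HT replicate 1, TH replicate 2 and both TT libraries below 0 in each subunit.

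**Figure D2:**
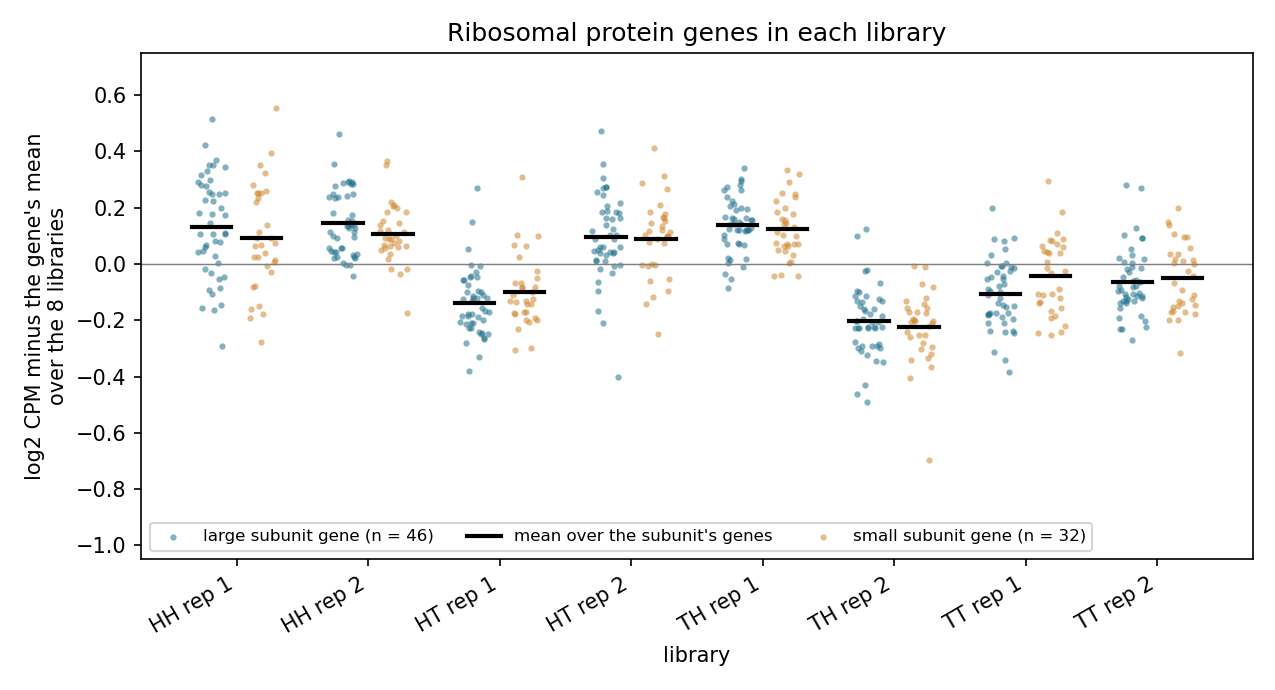
Log2 CPM of each ribosomal protein gene minus the gene's mean over the 8 libraries (y axis) in each library (x axis), with 46 large subunit genes in blue, 32 small subunit genes in orange and black lines at the subunit means. Both subunits lie mostly below 0 in HT replicate 1 and TH replicate 2, and mostly above 0 in both HH libraries, HT replicate 2 and TH replicate 1.

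The level of these genes split with the libraries' total counts. The 4 libraries with the fewest counts (TH replicate 1, HT replicate 2, HH replicate 1 and HH replicate 2) were the 4 with the highest level, and the 4 with the most counts (HT replicate 1, TT replicate 1, TT replicate 2 and TH replicate 2) were the 4 with the lowest. The relation was not graded: HH replicate 2 and HT replicate 1, with totals of 3823416 and 3890197, were neighbours in depth and stood at 0.13 and -0.12. After every library was thinned to the smallest total, the averages were 0.12 and 0.12 in HH, -0.12 and 0.09 in HT, 0.13 and -0.22 in TH, and -0.08 and -0.05 in TT. Thinning leaves each gene's expected share of its library as it was, so these values had to stay close and do not bear on the part of depth. The part of depth in the level of these genes was not tested.

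**Figure D3:**
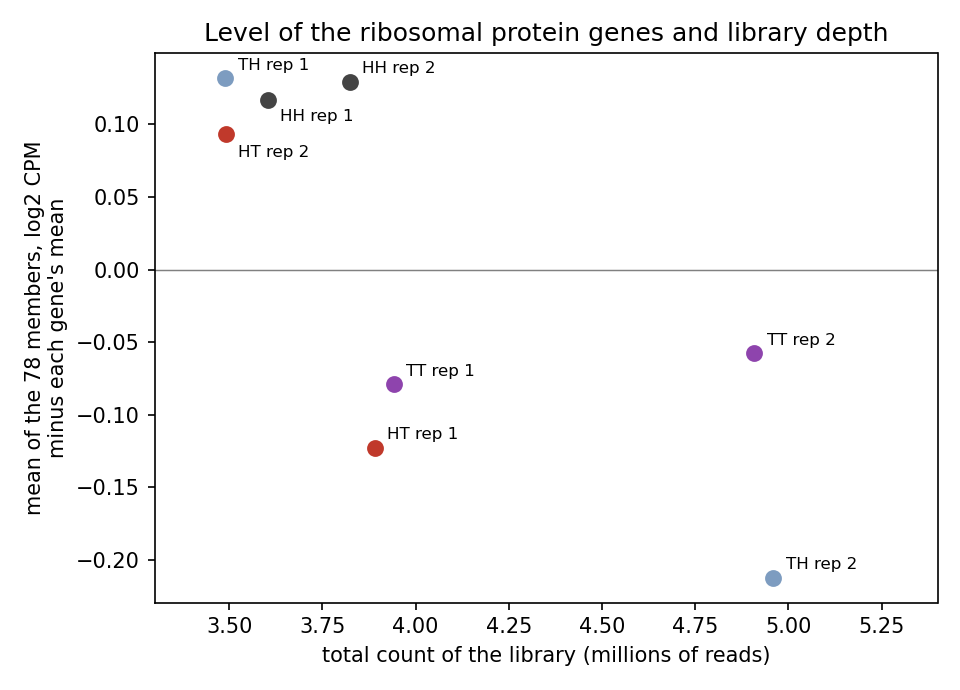
Mean level of the 78 ribosomal protein genes (log2 CPM minus each gene's mean over the libraries, y axis) against the library's total count (x axis, in units of 1e6 reads), 1 point per library, coloured by group. The 4 libraries with the fewest counts lie between 0.09 and 0.13, and the 4 with the most lie between -0.21 and -0.06.

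The first comparison, HT against HH, asks what 4 h of TTX did in cultures without earlier TTX. No ribosomal protein gene passed the adjusted threshold of 0.05 (edgeR's quasi-likelihood test with Benjamini-Hochberg adjustment over 11372 genes), nor did any other gene tested (0.0%). DESeq2 and limma-voom also called 0 members, here and in the 6 other comparisons. The smallest adjusted p among the members was 0.720 (edgeR), and standard errors ran from 0.13 to 0.26. The log2 fold change lay below 0 for 63 of 78 members, against 49.8% of all genes tested, with a median of -0.15 over the members and 0.00071 over all genes. At an unadjusted p under 0.05, 4 members were lower (Rpl27a, Rpl4, Rpl5 and Rpl7a), against 2.73% of all genes tested, and 0 were higher, against 3.75%. Both HT libraries lay below both HH libraries for 29 members, against 16.7% of all genes tested, and above them for 3 members (Rps19, Rps25 and Rps27a), against 18.6%.

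The members with the smallest p below 0 were large subunit genes that hold snoRNAs. Members with a snoRNA had the smaller standard errors (median 0.15, against 0.19 without), which favours them in a ranking by p. The largest fall, -0.55 in Rpl22l1, was in a member without one. Rpl27a stood at 233 and 239 CPM in HH, 164 and 194 in HT, 224 and 179 in TH, and 168 and 175 in TT. Both HT libraries were below both HH libraries, and the log2 difference was -0.40 ± 0.14 (SE, n = 2 per group; edgeR adjusted p = 0.720). Rpl4, with 5 snoRNAs the member that holds the most, stood at 306 and 272 CPM in HH, 219.9 and 246 in HT, 232 and 219.6 in TH, and 225 and 219 in TT. Its values outside HH were all below both HH values. Rpl5, which carries 5S ribosomal RNA into the large subunit together with Rpl11, stood at 322 and 306 CPM in HH, 228 and 266 in HT, 287 and 221 in TH, and 218 and 237 in TT. Rpl5 was also lower in both HT than in both HH libraries, by -0.35 ± 0.15 on the log2 scale (edgeR adjusted p = 0.754). Its partner Rpl11, at 36.1 and 28.4 CPM in HH and 23.3 and 31.2 in HT, had overlapping groups.

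The 3 members with the smallest p above 0 were small subunit genes without a snoRNA. Rps25, needed for translation from internal entry sites, stood at 31.5 and 37.3 CPM in HH, 41.1 and 51.1 in HT, 42.8 and 31.0 in TH, and 40.6 and 34.5 in TT. The HT libraries were above the HH libraries, by 0.42 ± 0.20 on the log2 scale (edgeR adjusted p = 0.779), while TH and TT overlapped. Rps27a, which is made as a fusion with ubiquitin, differed by 0.23 ± 0.17, and Rps19, mutated in Diamond-Blackfan anaemia, by 0.20 ± 0.14. Neither passed the threshold. The 3 acidic stalk genes, whose proteins recruit elongation factors, lay at 0.18 ± 0.17 (Rplp0), -0.04 ± 0.19 (Rplp1) and 0.04 ± 0.19 (Rplp2).

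The size of this difference depended on the HT library used. Without HT replicate 1 the members' median was -0.065 and without HT replicate 2 it was -0.28, while without HH replicate 1 it was -0.14, and without HH replicate 1 and HT replicate 1 together it was -0.039. By subunit, the median over the 46 large subunit genes was -0.16, with 39 below 0, and over the 32 small subunit genes -0.14, with 24 below 0.

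TT against TH asks the same of cultures that had been silenced before. No member passed the adjusted threshold (smallest adjusted p 1.00), and 0.0% of all genes tested did. The log2 fold change was below 0 for 52 of 78 members, against 49.1% of all genes tested, with a median of -0.040 against 0.0040 over all genes. At an unadjusted p under 0.05 there were 0 members lower, against 0.923% of all genes, and 0 higher, against 1.71%. Both TT libraries were below both TH libraries for 8 members (Rpl3, Rpl12, Rpl22, Rpl23, Rpl27a, Rpl32, Rpl35a and Rps2), against 14.1% of all genes, and above them for 3 (Rpl10a, Rps24 and Rps27), against 15.9%. The share of members with groups apart was thus below that of all genes, in a comparison where the TH libraries lay far from each other.

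Rpl32, a large subunit gene with 1 snoRNA, had the smallest p below 0. It stood at 162 and 141 CPM in HH, 129.6 and 140.1 in HT, 159 and 136 in TH, and 121 and 126 in TT, and the log2 difference of TT and TH was -0.25 ± 0.13 (edgeR adjusted p = 1.00). Above 0, the smallest p belonged to Rps29, a small zinc-binding protein, at 0.34 ± 0.24, Rpl8 at 0.24 ± 0.18 and Rpl10a at 0.21 ± 0.16. The members' median turned with the TH library used: it was 0.13 without TH replicate 1 and -0.21 without TH replicate 2.

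TH against HH asks whether a day of TTX left a difference after the washout. No member passed the adjusted threshold (smallest adjusted p 0.891), as was the case for all genes (0.0%). The log2 fold change was below 0 for 66 of 78 members, against 49.8% of all genes tested, with a median of -0.16 against 0.0011. At an unadjusted p under 0.05, 2 members (Rpl4 and Rps29) were lower, against 2.02% of all genes, and 0 were higher, against 2.06%. Groups were apart and lower for 26 members, against 13.4% of all genes, and higher for 1 (Rpl22), against 16.7%. Rps29 stood at 41.6 and 32.6 CPM in HH, 27.7 and 30.0 in HT, 27.3 and 17.2 in TH, and 24.2 and 31.1 in TT. The TH libraries were below the HH libraries, by -0.75 ± 0.23 on the log2 scale (edgeR adjusted p = 0.891), with TH replicate 2 the lowest of all 8. Rpl4 differed by -0.36 ± 0.13 and Rpl34 by -0.43 ± 0.20. The largest excess over 0 by p was Rpl18, at 0.20 ± 0.23. The members' median was 0.017 without TH replicate 2 and -0.37 without TH replicate 1, so its direction rested on TH replicate 2.

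TT against HT asks the same under a second TTX. No member passed the adjusted threshold (smallest adjusted p 1.00; 0.0% of all genes). The log2 fold change was below 0 for 55 of 78 members, against 49.9% of all genes, with a median of -0.061 against 0.00040. Without adjustment, at p under 0.05, 0 members were lower, against 1.06% of all genes, and 0 were higher, against 1.28%. Groups were apart and lower for 14 members, against 16.2% of all genes tested, and higher for 5, Rpl39, Rps4x, Rps6 and Rps27 among them, against 18.2%, both near or below the background. Rpl12, part of the stalk base, stood at 225 and 250.4 CPM in HH, 167 and 237 in HT, 224 and 167 in TH, and 154 and 167 in TT. Its TT libraries were both low, 1 HT and 1 TH library were as low, and the difference of TT and HT was -0.33 ± 0.18 (edgeR adjusted p = 1.00). Rpl38, required for the translation of Hox messenger RNAs in the embryo, differed by -0.29 ± 0.15 and Rps2 by -0.27 ± 0.16. Rps6, the target of S6 kinase, stood at 58.0 and 58.2 CPM in HH, 49.2 and 50.8 in HT, 59.9 and 46.9 in TH, and 54.6 and 58.6 in TT. Its HT libraries were below those of HH and of TT, and the difference of TT and HT was 0.18 ± 0.15. The members' median was -0.18 without HT replicate 1 and 0.064 without HT replicate 2.

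The interaction asks whether the second TTX acted differently after a first, as the TT-to-TH difference minus the HT-to-HH difference. No member passed the adjusted threshold (smallest adjusted p 1.00; 0.0% of all genes), with standard errors from 0.18 to 0.36. It lay below 0 for 25 of 78 members, against 48.8% of all genes tested, and the median was 0.12 against 0.0070 over all genes. With no adjustment 0 members were below 0 at p under 0.05, against 0.906% of all genes, and 0 above, against 0.73%. The smallest p above 0 belonged to Rps29 (0.70 ± 0.33), Rps27 (0.51 ± 0.26) and Rpl10a (0.45 ± 0.23), and below 0 to Rps25 (-0.39 ± 0.27), Rpl22 (-0.26 ± 0.19) and Rps19 (-0.26 ± 0.20). The median was -0.061 without TH replicate 2 and 0.29 without TH replicate 1.

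Averaging over the other treatment sets 4 libraries against 4. For the second TTX averaged over history no member passed the adjusted threshold (smallest adjusted p 0.484, Rpl27a at -0.31 ± 0.10), as was the case for all genes in edgeR (0.0%). The change lay below 0 for 63 of 78 members, against 50.3% of all genes tested, with a median of -0.074 against -0.0011. At an unadjusted p under 0.05, 4 members were lower (Rpl5, Rpl23, Rpl27a and Rpl32), against 2.59% of all genes, and 0 were higher, against 4.35%. No member had all 4 TTX libraries below all 4 vehicle libraries, against 1.64% of all genes, or above them, against 2.69%. Rpl23 stood at 138 and 117 CPM in HH, 91.1 and 114 in HT, 123 and 103 in TH, and 98.7 and 99.99 in TT, for a change of -0.25 ± 0.11 (edgeR adjusted p = 0.692). Only TH replicate 2, at 103, lay within the range of its TTX libraries. The members' median was 0.013 without TH replicate 1 and -0.18 without TH replicate 2.

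For the history of TTX averaged over the second treatment no member passed the adjusted threshold either (smallest adjusted p 0.814; 0.0% of all genes). The change lay below 0 for 69 of 78 members, against 50.0% of all genes tested, with a median of -0.11 against 2.2e-05. At an unadjusted p under 0.05, 5 members were lower, Rpl3, Rpl4, Rpl12 and Rps29 among them, against 2.74% of all genes, and 0 were higher, against 3.01%. No member had all 4 libraries with a history below all 4 without, against 1.17% of all genes, or above them, against 1.73%. Rpl3 stood at 688 and 707 CPM in HH, 512 and 647 in HT, 616 and 522 in TH, and 490.3 and 496 in TT. Its HH libraries were the highest and its TT libraries the lowest, and the change was -0.26 ± 0.11 with history and -0.24 ± 0.11 with the second TTX (edgeR adjusted p = 0.814 and 0.726). The members' median stayed between -0.21 and -0.039 when each library was left out in turn. The comparisons share libraries, so these values are not separate evidence.

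**Figure D4:**
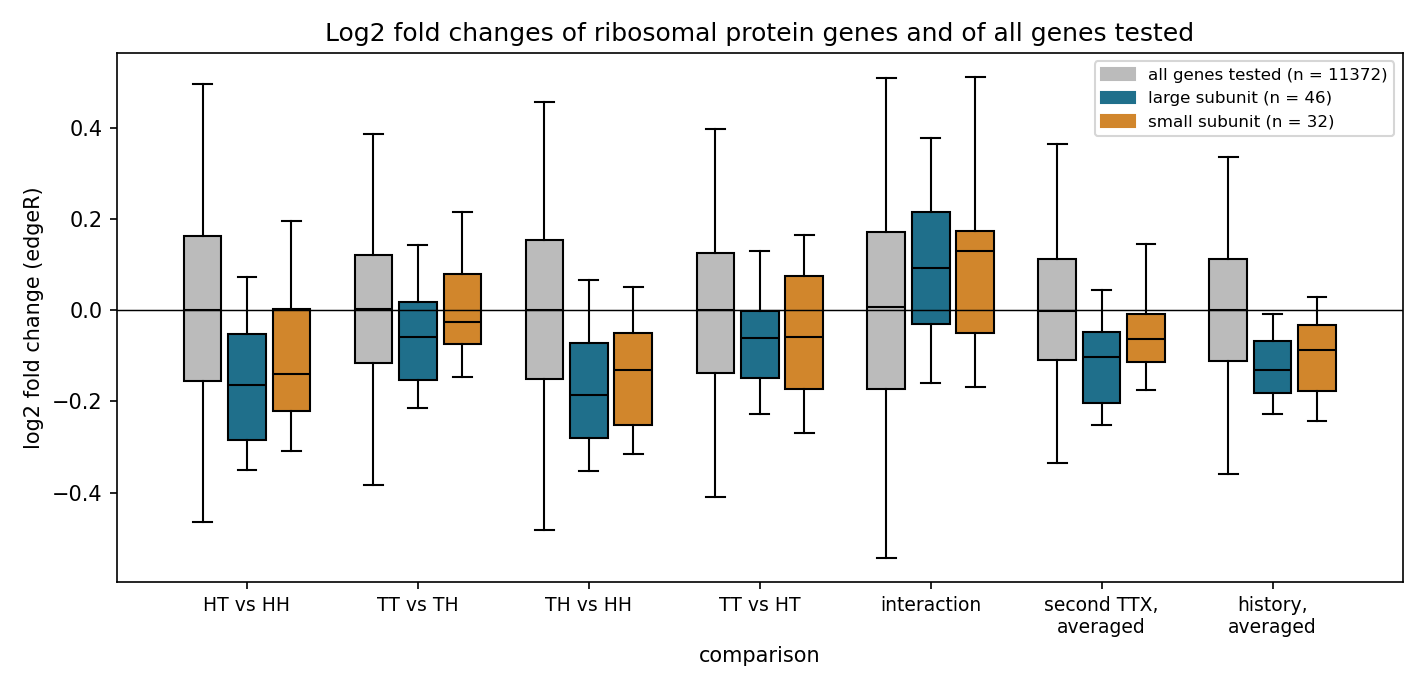
Log2 fold changes from edgeR (y axis) in the 7 comparisons (x axis) for all 11372 genes tested in grey, 46 large subunit genes in blue and 32 small subunit genes in orange, with boxes at the quartiles, lines at the medians and whiskers at the 5th and 95th percentiles. The boxes of all genes centre on 0, the subunit medians lie below 0 in 6 comparisons, between -0.19 and -0.026, and above 0 in the interaction.

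Large and small subunit genes differed little from each other. The mean of the large minus that of the small subunit genes was 0.040 and 0.039 in HH, -0.042 and 0.0052 in HT, 0.014 and 0.020 in TH, and -0.064 and -0.012 in TT, on the log2 scale. A scaling factor of a library cancels in this difference. The 4 libraries with vehicle second averaged 0.028 ± 0.013 (SD, n = 4) and the 4 with TTX second -0.028 ± 0.031 (SD, n = 4). The values of these libraries did not overlap. Centring each gene on its mean over the 8 libraries makes these means equal and opposite. The distance between these means is of the same order as the spread among the TTX libraries. Among members with a snoRNA inside the values were 0.0089, 0.044, -0.026, -0.025, 0.022, 0.0045, -0.041 and 0.013 in the same order of libraries, and among members without one 0.023, 0.034, -0.040, 0.023, 0.0090, 0.020, -0.058 and -0.011. Within each of these classes the vehicle and the TTX libraries overlapped, while their means kept the same direction. With a snoRNA these means were 0.020 ± 0.018 for vehicle and -0.020 ± 0.023 for TTX (SD, n = 4 each). Without one they were 0.021 ± 0.010 and -0.021 ± 0.035.

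On the log2 scale a larger separation, with a larger spread among the libraries, ran between members with and without a snoRNA. The mean of the 30 members with a snoRNA minus that of the 48 without was 0.19 and 0.019 in HH, -0.066 and -0.0075 in HT, 0.0051 and 0.048 in TH, and -0.10 and -0.081 in TT. All 4 vehicle libraries were above 0 and all 4 TTX libraries below it, with means of 0.064 ± 0.083 (SD, n = 4) and -0.064 ± 0.041 (SD, n = 4). The centring again sets these means equal and opposite, so 0 is only their midpoint. HH replicate 1 was far above the other 3 vehicle libraries, and HT replicate 2 and TH replicate 1 lay close to each other on either side of 0. Within the large subunit the values were 0.18, 0.018, -0.056, -0.026, 0.0085, 0.040, -0.090 and -0.071, again without overlap, and within the small subunit 0.19, 0.0077, -0.070, 0.022, -0.0050, 0.056, -0.11 and -0.095, with overlap. Among the 18 members with and 18 without a snoRNA whose summed counts lay between 1500 and 6500 (medians of 3969 and 1780.5, so still unequal in abundance), the values were 0.22, 0.038, -0.090, -0.032, 0.020, 0.038, -0.11 and -0.084. As the split was drawn after the counts had been seen and the difference is a score over members, it is given as a description with no p.

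**Figure D5:**
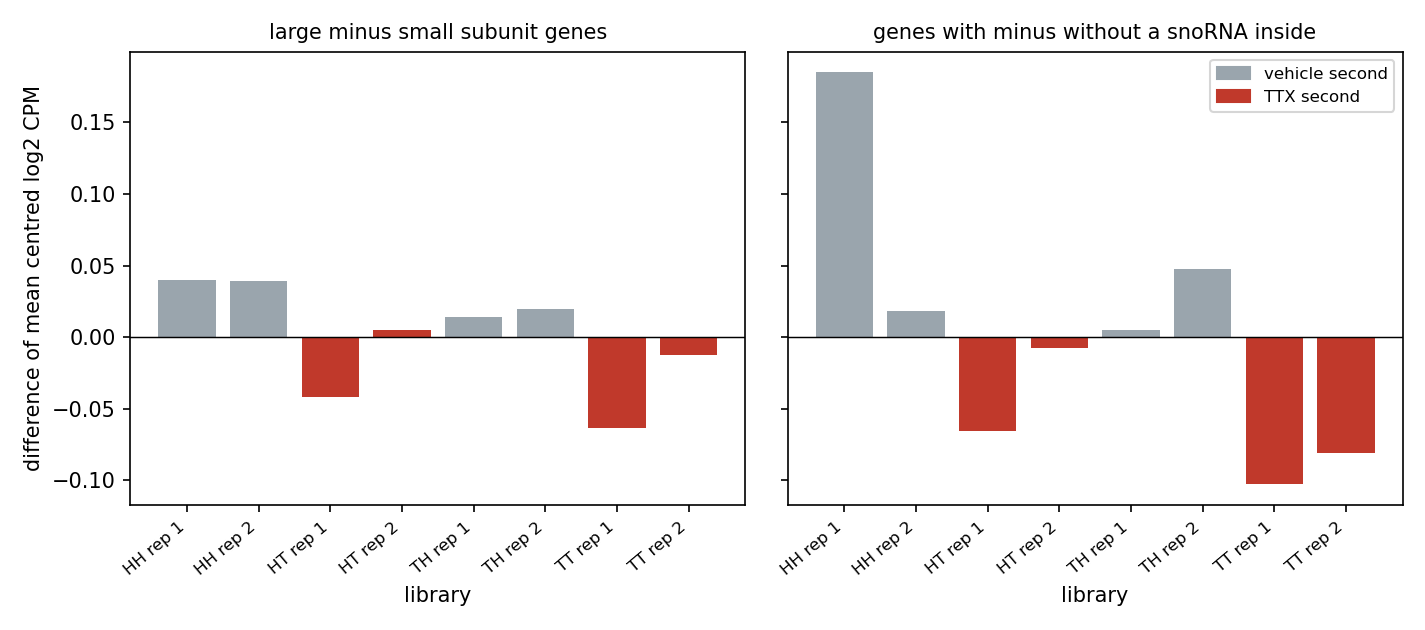
Difference of mean centred log2 CPM (y axis) per library (x axis), between large and small subunit genes (left panel) and between ribosomal protein genes with and without a snoRNA inside (right panel), grey for vehicle and red for TTX as the second treatment. On the left the vehicle libraries lie between 0.014 and 0.040 and the TTX libraries between -0.064 and 0.0052, and on the right HH replicate 1 at 0.19 stands above the other vehicle libraries, at 0.0051 to 0.048.

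The same separation appeared in the fitted changes. For the second TTX averaged over history, all 30 members with a snoRNA lay below 0, with a median of -0.17. Of the 48 without, 33 did, with a median of -0.044, against 50.3% of all genes tested. In HT against HH the medians were -0.24 with a snoRNA (28 of 30 below 0) and -0.10 without (35 of 48), against 49.8%. In TT against TH they were -0.096 (27 of 30) and -0.016 (25 of 48), against 49.1%. For history the medians differed in the same direction. For the averaged history, 29 of 30 with a snoRNA were below 0 (median -0.15) and 40 of 48 without (median -0.069), against 50.0% of all genes. In TH against HH the medians were -0.22 and -0.13, and in TT against HT -0.077 and -0.031. In the means per library, the separation of TH and HH rested on HH replicate 1. The mean with a snoRNA minus that without was 0.19 there, 0.019 in HH replicate 2, and 0.0051 and 0.048 in TH. HH replicate 1 was the highest library for 19 of the 30 members with a snoRNA and for 6 of the 48 without, against 21.6% of all genes tested. The median of the snoRNA-carrying members for the averaged second TTX stayed between -0.24 and -0.10 when each library was left out in turn. That of the others ran from -0.13 to 0.040. For the averaged history the ranges were -0.22 to -0.073 with a snoRNA and -0.19 to 0.0025 without.

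Genes outside the group that hold a snoRNA lay in the same direction. Of 52 other tested genes with a span of up to 20 kb and a snoRNA inside, 40 were below 0 for the averaged second TTX (median -0.15). The share over all genes tested was 50.3%. For the averaged history 42 were below 0 (median -0.13), against 50.0%, and in TH against HH 43 were (median -0.16), against 49.8%. Genes of such a span without a snoRNA were not compared. The level of the 52 genes per library was 0.10, 0.090, -0.10, 0.098, 0.075, -0.11, -0.091 and -0.067. The 4 libraries above 0 were the same as for the ribosomal protein genes. Gas5, a non-coding host of many snoRNAs, stood between 961 and 1294 CPM, highest in HH replicate 1 and lowest in TH replicate 2. None passed the adjusted threshold.

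Single members departed from the group. The widest range over the 8 libraries belonged to Rps29, at 1.25 log2 units, followed by Rpl31 at 0.94, the paralog Rpl22l1 at 0.92 and Rpl35 at 0.78, and the narrowest to Rps4x at 0.21, Rps9 at 0.25, Rps24 at 0.28 and Rpl22 at 0.33. The median range was 0.54 over the members and 0.59 over all genes tested. Rps4x, encoded on the X chromosome, stood at 48.1 and 50.9 CPM in HH, 46.3 and 45.2 in HT, 51.4 and 48.8 in TH, and 52.3 and 50.4 in TT. It lacked the low value in TH replicate 2 that most members had. Rpl31 stood at 49.3 and 49.3 CPM in HH, 40.9 and 66.0 in HT, 52.8 and 34.2 in TH, and 47.1 and 45.2 in TT, so its HT and TH replicates lay far apart while its HH replicates were equal.

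The paralog pairs gave a further contrast. Rpl22, a large subunit protein, stood at 52.4 and 52.4 CPM in HH, 58.0 and 51.1 in HT, 52.8 and 57.1 in TH, and 45.8 and 49.4 in TT. Rpl22l1, which can take its place in the ribosome, stood at 16.3 and 11.5 CPM in HH, 10.3 and 8.42 in HT, 11.3 and 12.1 in TH, and 9.97 and 11.8 in TT. Rpl22l1 was lower in both HT than in both HH libraries, at -0.55 ± 0.26 (edgeR adjusted p = 0.779), while Rpl22 was at 0.06 ± 0.13 with overlapping groups. The difference between the paralogs was not tested, and Rpl22l1 had the second lowest count of all members. Rps27l, a p53-inducible paralog of Rps27, lay between 9.31 and 13.7 CPM and differed by 0.07 ± 0.25 in HT against HH and by 0.22 ± 0.24 in TT against TH.

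The members of the acidic stalk varied with the library rather than with the treatment. Rplp0 stood at 97.5 and 107 CPM in HH, 100.1 and 133 in HT, 112 and 84.4 in TH, and 104 and 95.6 in TT. Rplp1 stood at 78.6 and 84.0 CPM in HH, 67.0 and 91.0 in HT, 85.4 and 59.9 in TH, and 79.0 and 69.5 in TT. Rplp2 stood at 69.7 and 75.4 CPM in HH, 62.1 and 87.3 in HT, 84.8 and 63.1 in TH, and 59.5 and 67.9 in TT. In all 3 genes HT replicate 2 was the highest library, and the groups overlapped in HT against HH and in TT against TH.

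The other genes named by rule did not pass the threshold. Rpsa, which doubles as a laminin receptor, stood at 405 and 390.5 CPM in HH, 295 and 369 in HT, 365 and 296 in TH, and 309 and 312 in TT, with -0.26 ± 0.15 in HT against HH. Rpl13a, a component of an interferon-induced silencing complex, differed by -0.15 ± 0.17 in HT against HH and by -0.09 ± 0.17 in TT against TH. In the same 2 comparisons Rps3 was at -0.14 ± 0.14 and 0.04 ± 0.14, Rps14 at -0.15 ± 0.22 and -0.19 ± 0.21, Rpl10 at -0.16 ± 0.19 and 0.05 ± 0.19, and Rpl24 at -0.20 ± 0.16 and 0.12 ± 0.16. Rpl7 was at -0.10 ± 0.16 and -0.04 ± 0.16, Rpl39, at the exit of the peptide tunnel, at -0.24 ± 0.15 and -0.00 ± 0.15, and Rpl41, the shortest of the ribosomal proteins, at -0.11 ± 0.18 and -0.02 ± 0.18. Each of these differences was under 2 standard errors.

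Genes that work with the ribosome were measured beside it. The 69 mitochondrial ribosomal protein genes, whose products form a separate ribosome, had a median of -0.056 in HT against HH (41 below 0) and of 0.014 for the averaged history. Their level was -0.078 and 0.024 in the HT replicates and 0.071 and -0.051 in the TH replicates. The lower replicate of each was the same as for the cytosolic genes, over a narrower range. The 54 ribosome biogenesis genes had medians of -0.035 in HT against HH and 0.013 for the averaged history. A list of 23 genes that regulate ribosomal protein genes had medians of 0.039 and -0.00083. The 17 translation factor genes and others whose messenger RNAs begin with the pyrimidine motif had medians of -0.076 and -0.077. Their median was 0.036 for the averaged second TTX (11 above 0) and 0.056 in TT against TH (12 above 0). The ribosomal protein genes were at -0.074 and -0.040 there. In the 7 comparisons no gene of these lists had an adjusted p under 0.05 (edgeR).

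Markers of cell types also differed between these libraries. The level of 11 inhibitory neuron markers was 0.43 in HH replicate 1 and -0.25 in TH replicate 2, and that of 14 oligodendrocyte lineage markers ran from -0.57 in HH replicate 1 to 0.74 in TT replicate 2. The 18 proliferation markers ran from -0.53 in HH replicate 1 to 0.43 in HT replicate 2, and the 11 excitatory neuron markers from -0.25 in TT replicate 2 to 0.12 in TH replicate 1. The HH libraries, highest in ribosomal protein genes on average, were thus the lowest in the oligodendrocyte lineage and proliferation markers. The part of cell makeup in the ribosomal protein differences was not tested.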

How the data were processed

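Nascent RNA was counted in 8 libraries. The deposited values are raw whole-number counts of reads per gene symbol. The authors made them with FastQC, Bowtie2, TopHat2 and featureCounts on rat build rn6, per the submitters' processing notes. The sources used here do not give versions, the annotation, the strand setting or whether introns were counted. Since nascent RNA is largely unspliced, leaving introns out would lower genes with long introns, while overlapping genes on either strand can share reads. Groups and replicate numbers came from the titles, and columns were matched through the sample descriptions. No sample matched 2 other columns, which stayed out. Labels give no batch or date.

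Counts were fitted in R 4.3.3 with edgeR 4.0.16 (TMM scaling, filterByExpr, 1 model of 4 group means, 4 residual degrees of freedom, robust quasi-likelihood test, Benjamini-Hochberg adjustment over 11372 genes at 0.05). Of 16871 genes, 1954 had no count. The common biological coefficient of variation was 0.128. Standard errors equal the absolute log2 change divided by the root of the test's F statistic, and rest on the spread in all groups. Log2 CPM used a prior count of 2. Replicates of every group differed by more than sampling noise. The script was tested on simulated data. Alternatives used limma 3.58.1 (voom) and DESeq2 1.42.0, other scalings and filters, left-out libraries, a replicate block, a member minimum of 800 counts and the paralogs left out. Thinning to the smallest total and the snoRNA split were chosen after seeing the data.

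The members and lists were chosen with earlier results of these data known. Members named are the 3 of smallest p on either side of 0 in each comparison, the 4 widest and 4 narrowest in range, and a list of well-known members. Others are named where a count is 5 or fewer, where groups did not overlap, for level per kb, or for a window, and these were chosen after their values were seen. A few of the genes so chosen are not reported here. Names, spans, snoRNA positions and promoter windows came from RefSeq (GRCr8), in which all 78 members had a gene entry and 63 a promoter window. A snoRNA counted as inside when its span lay within the gene's, strand ignored. As this is not the build of the counts, it served only names, spans, neighbourhood and sequence. Python 3.11.15 and matplotlib 3.10.9 made the figures.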

Additional observations from a re-analysis of the deposited data

Results flagged for a closer look

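Rps27, a small zinc-binding protein of the small subunit, differed in direction by history. It stood at 25.9 and 28.2 CPM in HH, 19.7 and 24.1 in HT, 24.3 and 21.0 in TH, and 27.7 and 24.5 in TT. Both HT libraries lay below both HH libraries, as for 16.7% of all genes tested. Both TT libraries lay above both TH libraries, as for 15.9% of all genes tested. The second gap was narrow, with TT replicate 2 at 24.5 CPM and TH replicate 1 at 24.3. The difference between these effects was 0.51 ± 0.26 on the log2 scale (SE, n = 2 per group) and did not pass the threshold (edgeR adjusted p = 1.00). Over the 4 groups the counts of this gene summed to 780.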

How the results depend on the processing

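Under every alternative run, 0 members had an adjusted p under 0.05 in the 7 comparisons. Over all genes, the averaged second TTX gave 12 calls with DESeq2 and 16 without the low-count filter, against 0 with edgeR, none of them a member. Medians of the members and large-minus-small differences were the same within 1 SD between replicates in 349 cases and moved in 9, all by leaving out 1 library. This measure was wide for the medians. The pooled SD of the members' level within groups was 0.14, and their medians lay between -0.16 and 0.12. A median could thus change its sign and still count as the same. The members' median ranged from -0.21 to 0.13 for TT against TH when single libraries were left out. It ranged from -0.37 to 0.017 for TH against HH and from -0.18 to 0.013 for the averaged second TTX. The extremes in each of these came from the TH replicates. For the averaged history the members' median stayed between -0.21 and -0.039, and for HT against HH between -0.28 and -0.065. The large-minus-small difference ranged from -0.081 (without TT replicate 2) to -0.029 (without TT replicate 1) for TT against TH, and from -0.045 to 0.0061 without the same libraries for TT against HT. The cause was not tested. With the replicate number as a block, the median was -0.15 in HT against HH and -0.16 in TH against HH, and 0 members were called in each comparison. Deviations of same-numbered replicates correlated at 0.45 between HH and HT, and between -0.066 and 0.087 over the other pairs of groups. The numbers were not taken to pair the libraries, though for HH and HT the value does not settle this. With 2 libraries per group and standard errors of 0.13 to 0.26 in HT against HH, the precision for single members is limited.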
